A study of Mus musculus with 4 samples.

Results

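The genes described here mark naive, resting T cells: the receptor genes Ccr7, Il7r and S1pr1, and the transcription factor genes Klf2, Tcf7, Lef1, Foxo1, Bach2 and Satb1. They were chosen by symbol, taking every probe set whose single gene name is one of these 9. Of the 9 genes, 8 had a probe set, out of 18193 genes named on the array, and they had 19 probe sets between them. Tcf7 was not matched to a probe set and is not analysed here. Naive CD4 T cells were sorted from 2D2 transgenic mice, whose T cells carry a receptor for a myelin peptide, and were cultured for 3 days with anti-CD3 bound to the plate at 5 µg/ml and anti-CD28 at 1 µg/ml. The comparison is between wildtype 2D2 cells (2 arrays) and miR-146a-deficient 2D2 cells (2 arrays). Both groups carry the 2D2 transgene and both were stimulated, so no unstimulated naive sample stands beside them. The replicates are called biological, but nothing ties each to its own mouse or culture, so the spread between these samples may be technical. The p-values rest on that spread, with 2 residual degrees of freedom, and on a variance shared across all tested genes, for 8.60 in total.

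Naive T cells circulate through lymph nodes. CCR7 and S1PR1 let them enter and leave, and signals from the IL-7 receptor keep them alive. FOXO1 stays in the nucleus of a resting cell and drives the genes of KLF2, CCR7 and the IL-7 receptor. After T cell receptor signalling, PI3K and AKT send it to the cytoplasm, and much of the naive programme is known to fall. TCF1 (the product of Tcf7) and LEF1 are related factors of T cell development and memory, BACH2 represses effector genes, and SATB1 organises chromatin in thymocytes and T cells.

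The microRNA that separates the groups is shown because the shared seed also belongs to a relative that is encoded elsewhere in the genome. Both mature sequences are from RefSeq (GRCm38.p6), with the seed, bases 2 to 8, in capitals. The Mir146 product lies on the minus strand at chr11:43374435-43374456 and the Mir146b product on the plus strand at chr19:46342790-46342811.
mmu-miR-146a-5p: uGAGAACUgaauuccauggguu
mmu-miR-146b-5p: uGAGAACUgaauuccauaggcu
Their seeds are identical. The loss of miR-146a could not be checked on these arrays, since none of the named probe sets belongs to its gene.

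Values are MAS5 signals, a linear intensity for each probe set that the authors had scaled per array to a 2% trimmed mean of 500.0. Median signals ran from 48.6 to 57.7 over the 4 arrays, and the small number of arrays limits all precision. Changes are differences of log2(signal + 14.7), deficient minus wildtype, with the standard error and 95% interval of limma's moderated fit, and p-values were adjusted over all 12821 genes tested. Probe sets differ in how strongly they bind, so no probe set's level is set against another's. The T cell label was met by Cd3e, a subunit of the T cell receptor complex, with signals of 2349 and 2406 in wildtype cells and 2254 and 2652 in deficient cells. Cd4, the co-receptor gene of the labelled cells, read 605 and 655 against 462 and 725. In both genotypes the usual activation markers Cd44 (7710 ± 463 and 8605 ± 151, SD, n = 2), Cd69 (2626 ± 27 and 2678 ± 506) and Il2ra (5404 ± 175 and 4514 ± 1057) lay well above the filter on dim genes, a signal of 29.9. None of these 5 passed the test between genotypes.

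None of the 8 measured naive and quiescence genes passed the test between genotypes. At an adjusted p of 0.05, 0 of 8 were called by limma, where 0.179% of all tested genes were (0.172% higher and 0.0078% lower), and 0 had an unadjusted p below 0.05, where 5.26% of all tested genes did. All 8 genes passed the filter through their brightest probe set. Of the 8, 4 lay higher and 4 lower, with changes from -0.22 for Lef1 to 0.26 for Klf2. Their median change was 0.01, beside -0.01 over all tested genes. In absolute size their median was 0.12, the same as the 0.12 of all tested genes. Adjusted p ranged from 0.951 to 0.998. With every probe set tested as its own feature, 0 of the 18 probe sets past the filter were called, where 0.167% of 27022 were, and 0 had an unadjusted p below 0.05, where 5.45% did. In RNA from a bulk culture, fewer cells of a type and less RNA per cell cannot be told apart.

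**Figure D1:**
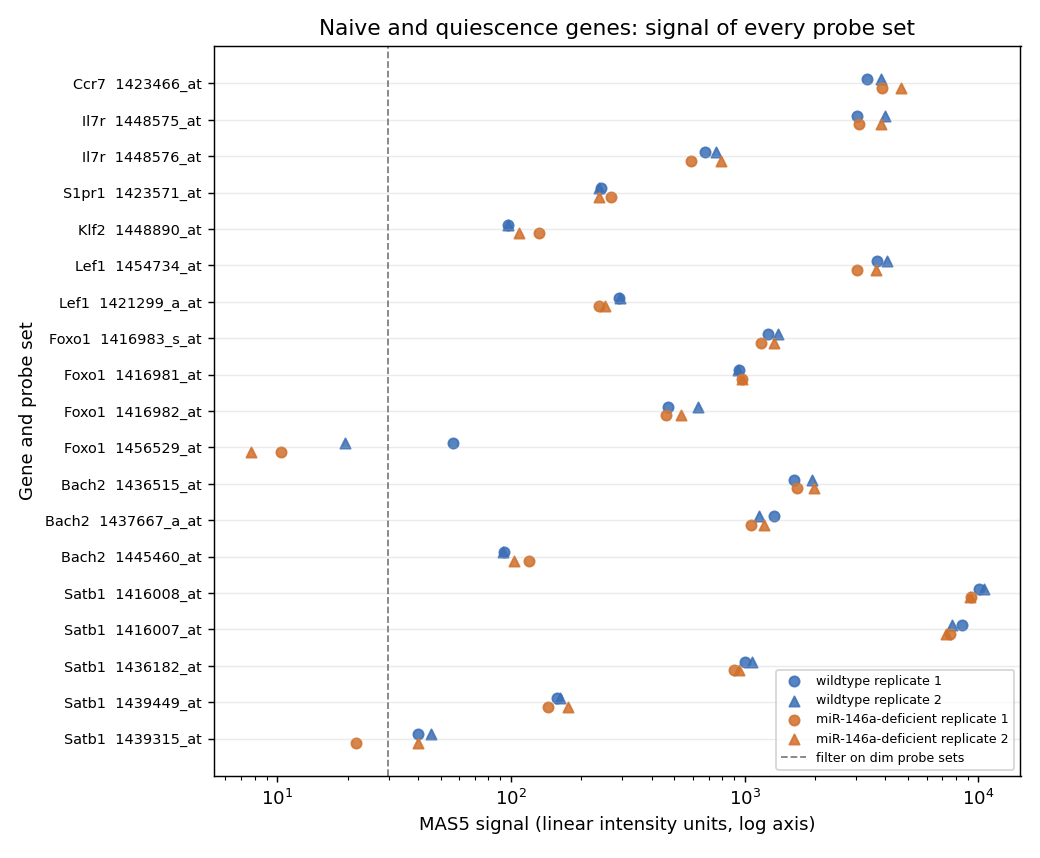
Signal of all 19 probe sets of the 8 measured genes in each of the 4 arrays, on a log axis of linear MAS5 units. Blue is wildtype, orange is miR-146a-deficient, circles are replicate 1 and triangles replicate 2. Apart from the dim Foxo1 probe set 1456529_at, the genotypes lie close together beside the range of the axis, and the dashed line is the filter at 29.9.

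Ccr7, the receptor for the lymph node chemokines CCL19 and CCL21, read 3327 and 3840 in wildtype cells and 3884 and 4654 in deficient cells. Both deficient arrays lay above both wildtype arrays, but the lower deficient value stood only slightly above the higher wildtype one. The difference was 0.25 ± 0.12, with a 95% interval from -0.02 to 0.52 (adjusted p = 0.951), which on this scale spans 0.984-fold to 1.44-fold. Ccr7 had the smallest p of the 8 genes, 0.0681 unadjusted. It kept its direction in all 13 alternatives, from 0.12 to 0.38, with an adjusted p never below 0.469. Ccr7 is also known on B cells and on mature dendritic cells, and B cell transcripts were higher in the deficient arrays of these sorted T cells. Of the list of B cell markers, 15 of 15 tested genes lay higher and 3 were called. The summed signal of its 17 genes with a probe set was 6468 and 9435 in wildtype cells and 17774 and 18526 in deficient cells. Ms4a1, the gene of the B cell surface protein CD20, read 167 and 228 against 838 and 1150, and Cd79a, a subunit of the B cell receptor, 67.7 and 127 against 174 and 138. No gene of the list with a probe set was at 0. The dendritic cell list had a summed signal of 9496 and 10524 against 11518 and 12094, with 4 of 7 tested genes higher, 3 lower and 1 called. In that list Itgax, the gene of CD11c, read 50.9 and 8.43 against 7.07 and 32.7, below the filter on average. The part of such cells in the Ccr7 values was not tested. Ccr7 lies on chromosome 11, as Mir146 does, with 595 tested genes between them in gene order.

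Il7r, which encodes the alpha chain of the IL-7 receptor, read 3010 and 3992 in wildtype cells and 3071 and 3814 in deficient cells. The genotypes overlapped almost completely. The difference was -0.02 ± 0.15, with an interval from 0.776-fold to 1.26-fold (adjusted p = 0.998). The dimmer Il7r probe set, 1448576_at, read 676 and 755 against 586 and 794, and gave -0.06 ± 0.16. The sign of the brighter one was not fixed by these arrays: it was 0.06 after median centring.

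S1pr1, the receptor with which T cells follow sphingosine-1-phosphate out of lymph nodes, read 243 and 239 in wildtype cells and 269 and 238 in deficient cells. Deficient replicate 1 was the highest and deficient replicate 2 the lowest of the 4. The difference was 0.07 ± 0.17, with an interval from 0.797-fold to 1.38-fold (adjusted p = 0.993).

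Klf2, a zinc finger factor that maintains quiescence and is known to drive S1pr1, had wildtype signals of 97.2 and 97.2 and deficient signals of 132 and 108. Both deficient arrays lay above both wildtype arrays, and they differed from each other by more than the nearer one differed from wildtype. The change was 0.26 ± 0.25, with a wide interval from 0.811-fold to 1.76-fold (adjusted p = 0.975). Klf2 is the only gene of the 8 whose interval reached beyond 1.5-fold.

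Foxo1 read 1259 and 1391 in wildtype cells and 1174 and 1339 in deficient cells on its brightest probe set, 1416983_s_at, whose suffix marks probes that may match more than 1 transcript. The genotypes overlapped, and the difference was -0.08 ± 0.12 (0.785-fold to 1.14-fold, adjusted p = 0.985). After median centring it was 0.0063. Its other probe sets past the filter gave 0.05 ± 0.11 for 1416981_at and -0.13 ± 0.17 for 1416982_at, so they did not share a direction. On 1416981_at the replicates were almost equal, at 943 and 939 against 977 and 978. The fourth probe set, 1456529_at, was below the filter, at 56.4 and 19.5 against 10.3 and 7.71, and was not tested on its own.

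**Figure D2:**
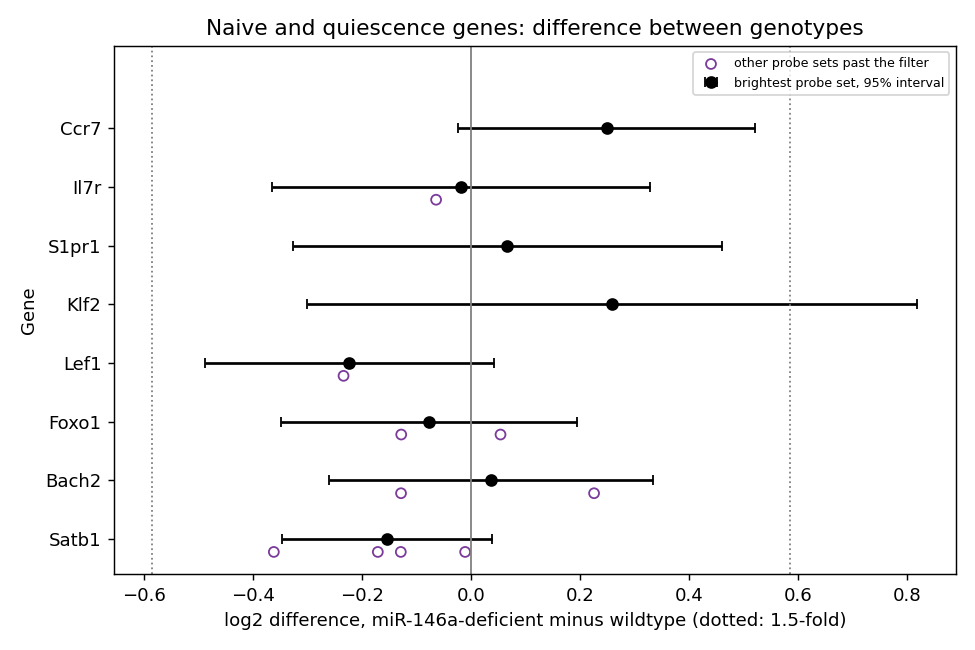
Log2 difference between genotypes (deficient minus wildtype) for the 8 measured genes. Black points with bars are the brightest probe set with its 95% interval, open circles the other probe sets past the filter, and dotted lines 1.5-fold in either direction. Every interval crosses 0, and that of Klf2 alone crosses a dotted line.

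Lef1, a partner of beta-catenin, read 3671 and 4082 in wildtype cells and 3018 and 3638 in deficient cells. Both deficient arrays were below both wildtype arrays, though deficient replicate 2 was nearly at the level of wildtype replicate 1. The difference was -0.22 ± 0.12, with an interval from 0.713-fold to 1.03-fold (adjusted p = 0.951). The dimmer Lef1 probe set, 1421299_a_at, gave nearly the same, -0.23 ± 0.16, from signals of 291 and 292 against 238 and 253. Probe sets of 1 gene read the same RNA and are not replicates of each other.

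Satb1 has 5 probe sets, all with a negative change. The brightest, 1416008_at, read 10065 and 10546 in wildtype cells and 9300 and 9215 in deficient cells. The arrays of the genotypes were apart, and the difference was -0.15 ± 0.08, with an interval from 0.787-fold to 1.03-fold (adjusted p = 0.953). The next, 1416007_at, gave -0.13 ± 0.09 from signals of 8472 and 7682 against 7519 and 7238, and 1436182_at gave -0.17 ± 0.12. The dim 1439449_at and 1439315_at gave -0.01 ± 0.21 and -0.36 ± 0.39. In 4 of the 5 both deficient arrays lay lower, where this held for 17.7% of all tested genes. Counting either direction, 34.1% of all tested probe sets did not overlap. The 5 read the RNA of 1 gene and are not replicates, and the interval of each included 0.

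Bach2, the repressor that opposes Prdm1 and the effector programme, read 1626 and 1945 in wildtype cells and 1675 and 1989 in deficient cells. The difference was 0.04 ± 0.13 (0.835-fold to 1.26-fold, adjusted p = 0.994). Its other probe sets disagreed in sign, with -0.13 ± 0.13 for 1437667_a_at and 0.23 ± 0.24 for the dim 1445460_at. No direction can be given for Bach2 from these values.

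The 4 genes whose arrays did not overlap between genotypes were Ccr7 and Klf2, higher in the deficient cells, and Lef1 and Satb1, lower. That is 4 of 8, where 33.6% of all tested genes did not overlap (15.9% higher and 17.7% lower), and 8 genes are too few to set apart from that share. Of the 18 probe sets past the filter 10 did not overlap, 4 higher and 6 lower, where 34.1% of all tested probe sets did not; several of the 10 share a gene. The 95% interval lay within 1.5-fold in both directions for 7 of the 8 genes, where it did for 57.3% of all tested genes. In those 7 a larger difference lies outside the 95% interval of this fit, while smaller ones up to about its ends do not. The intervals rest on 2 arrays a genotype and on a variance fitted with the intensity trend. A larger difference is therefore not excluded.

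The arrays labelled replicate 2 often lay above those labelled replicate 1 for these genes. This held in both genotypes for 5 of the 8, Ccr7, Il7r, Lef1, Foxo1 and Bach2, where it did for 26.2% of all tested genes. S1pr1 lay lower in both, and 8 genes are too few to set apart from that share. For Il7r replicate 2 was higher by 0.41 in wildtype and by 0.31 in deficient cells, beside a genotype difference of -0.02. For Bach2 these values were 0.26 and 0.25, beside 0.04, and for Foxo1 0.14 and 0.19, beside -0.08. In 3 of the 8 genes both replicate differences were larger than the genotype difference, where 42.9% of all tested genes were the same. Over all tested genes the median difference between replicates was 0.01 in wildtype and -0.01 in deficient arrays. Of the 15 related and marker lists, 11 had a median above 0 in both genotypes: it was 0.26 in wildtype and 0.15 in deficient arrays for other naive T cell genes, 0.18 and 0.15 for quiescence regulators, and 0.18 and 0.17 for T cell identity genes. In the other 4 the medians had opposite signs, at 0.20 and -0.08 for chemokine receptors, 0.12 and -0.11 for partners and targets of BACH2 and SATB1, 0.07 and -0.10 for activation and effector genes, and -0.37 and 0.33 for dendritic cell markers. The ratio of 3' to 5' control signal, a sign of RNA quality, was also higher on the arrays labelled replicate 2. For beta-actin it was 1.17 and 1.30 in wildtype and 1.14 and 1.25 in deficient cells, for Gapdh 0.778 and 0.808 and then 0.746 and 0.778, and for the transferrin receptor 2.40 and 2.74 and then 1.92 and 2.23. The part of RNA quality in the replicate differences, or in the differences between genotypes, was not tested. What the replicate number marks is not given in the labels.

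**Figure D3:**
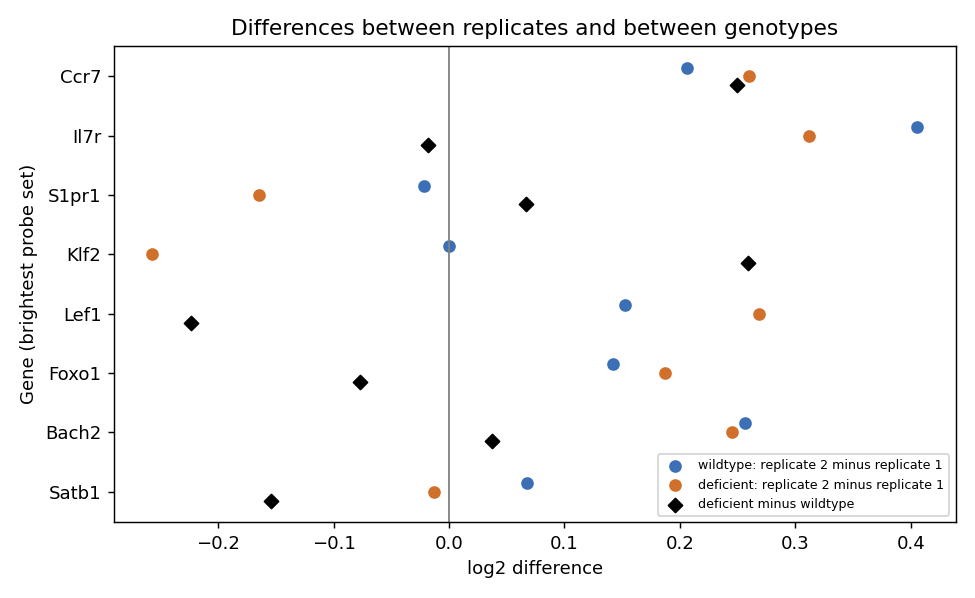
Log2 differences for the brightest probe set of each gene: replicate 2 minus replicate 1 in wildtype (blue) and in deficient arrays (orange), and deficient minus wildtype (black diamonds). For Il7r, Foxo1 and Bach2 both coloured points lie further from 0 than the diamond.

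No related gene was called in any of the 10 lists around the naive programme and T cell activation, where 0.179% of all tested genes were called. In limma's fit an unadjusted p below 0.05 was found for 3 of 22 other naive T cell genes, 3 of 15 inputs of FOXO1 and 2 of 15 of its targets. It was also found for 3 of 18 partners and targets of BACH2 and SATB1 and 3 of 21 activation and effector genes. The quiescence, egress and chemokine receptor lists had 1 each, and the IL-7 signalling and TCF and LEF lists 0. Over all tested genes 5.26% lay below 0.05. The list of other naive T cell genes had 22 tested members, of which 12 were higher and 10 lower, with a median change of 0.03. Cd27, a costimulatory receptor of the TNF receptor family, read 304 and 388 against 480 and 523, a difference of 0.53 ± 0.17 (adjusted p = 0.642). Cd27 is also found on B cells, whose markers were higher in the same arrays, and their part in this value was not tested. Il6ra, the IL-6 receptor chain of naive CD4 T cells, went the other way, at 382 and 560 against 245 and 343, a difference of -0.65 ± 0.22 (adjusted p = 0.760). Its second probe set gave -0.85, and with 1 array left out the first ran from -0.91 to -0.38. Bcl11b, a factor of T cell commitment, differed by -0.22 ± 0.09 (adjusted p = 0.929).

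The quiescence regulators, such as the FOXP1, KLF, BTG and TOB genes, had 29 tested members, 11 higher and 18 lower, with a median change of -0.04. Runx1, a transcription factor of T cell development, had the smallest p of the list, at 197 and 200 against 140 and 136, a difference of -0.48 ± 0.20 (adjusted p = 0.909). It was the one gene of the list with an unadjusted p below 0.05. Its other 5 probe sets were lower as well, from -0.07 to -1.51.

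The inputs of FOXO1 had 15 tested members, 3 higher and 12 lower, with a median change of -0.09. Inpp4b, a lipid phosphatase that limits PI3K signals, differed by -0.75 ± 0.21 (adjusted p = 0.540), at 206 and 252 against 141 and 119. The catalytic subunits of PI3K, Pik3ca and Pik3cd, differed by -0.41 ± 0.12 and -0.35 ± 0.13 (adjusted p = 0.594 and 0.794). Pik3cd rests on its brightest probe set, since the mean of all its probe sets gave 0.016. It passed without wildtype replicate 2 (-0.55, adjusted p = 0.0194) and was -0.16 without wildtype replicate 1 (adjusted p = 0.917). For Pik3ca the mean of probe sets gave -0.11, and for Inpp4b, whose second probe set gave -0.06, it gave -0.40. Among target genes of FOXO1 outside the 9, 5 of 15 were higher and the median was -0.09. Txnip, an inhibitor of thioredoxin and of glucose uptake, read 774 and 600 against 960 and 982, a difference of 0.50 ± 0.15 (adjusted p = 0.561), and its dimmer probe set gave 0.48. Bcl2l11, which encodes the pro-apoptotic protein BIM, differed by 0.43 ± 0.16 (adjusted p = 0.835), while its other 4 probe sets lay between -0.24 and 0.07.

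Around the receptors, the IL-7 signalling list had 4 of 11 tested genes higher, a median of -0.08 and no gene with an unadjusted p below 0.05. The egress list had 3 of 10 higher and a median of -0.07. In it S1pr2, a receptor that inhibits migration, differed by -0.46 ± 0.19 (adjusted p = 0.930), and its other probe set gave -0.05. With 1 array left out the gene ran from -0.64 to -0.19. The value of -0.19 was without wildtype replicate 1, where the other probe set was brightest. Cxcr5, the receptor that takes follicular T cells and B cells to B cell areas, had the smallest p among the chemokine receptor genes, at 190 and 220 against 349 and 340, a difference of 0.71 ± 0.17 (adjusted p = 0.344). It too is a gene of B cells, and their part was not tested. That list had 7 of 12 genes higher and a median of 0.01, Ccr7 included.

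Around the transcription factors, the TCF and LEF cofactors had 8 of 14 tested genes higher, a median of 0.02 and no unadjusted p below 0.05. The partners and targets of BACH2 and SATB1 had 5 of 18 higher and a median of -0.10. Both deficient arrays lay lower in 8 of the 18 and higher in 2, where 17.7% and 15.9% of all tested genes did. The list was chosen with earlier results known and was not tested. Gata3, the Th2 factor, differed by -0.34 ± 0.09 (adjusted p = 0.416), and Jund by -0.21 ± 0.08 (adjusted p = 0.909). The mean of the Jund probe sets had the opposite sign (0.28), but its other probe set, with mean signals of 19.6 and 42.7, lay below the filter. Jun, an AP-1 subunit, differed by 0.57 ± 0.17 (adjusted p = 0.561) and by 0.62 on its second probe set. Prdm1, the target that BACH2 is best known to repress, differed by 0.33 ± 0.32 (adjusted p = 0.975).

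Genes of activated and effector T cells were balanced, with 10 of 21 tested genes higher and a median of -0.01. Gzmb, which encodes granzyme B, read 22310 and 27648 against 32985 and 30676, a difference of 0.36 ± 0.11 (adjusted p = 0.642) that passed without wildtype replicate 2 (0.51, adjusted p = 0.00846) and was 0.20 without wildtype replicate 1 (adjusted p = 0.672). Icos, a costimulatory receptor, differed by 0.33 ± 0.11 (adjusted p = 0.688), with 0.18 for the mean of its probe sets, and Id2, an inhibitor of E proteins, by -0.38 ± 0.14 (adjusted p = 0.856), with a sign that the mean of its probe sets turned (0.03). Of 12 T cell identity genes 7 were higher, with a median of 0.05. Trat1, a T cell receptor-associated adaptor, differed by -0.61 ± 0.13 (adjusted p = 0.247), at 10734 and 11978 against 6500 and 8520. It passed without wildtype replicate 1 (-0.69, adjusted p = 0.00547), where 1 wildtype array was left.

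**Figure D4:**
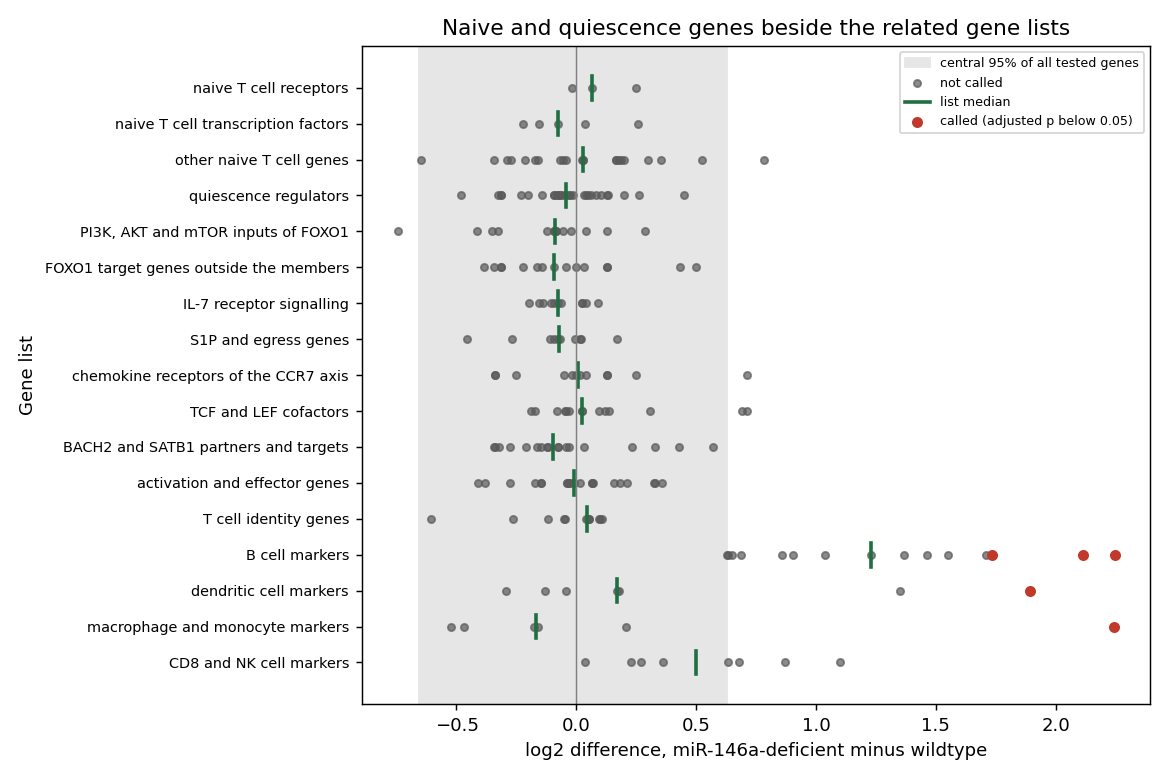
Log2 difference (deficient minus wildtype) of every tested gene in each list, one row a list. Grey points were not called, red points were called, green bars are list medians and the grey band holds the central 95% of all tested genes, from -0.66 to 0.63. The naive, quiescence and activation lists centre near 0, and, in this fit, the red points are in the rows of B cell, dendritic cell and macrophage markers.

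Among markers of other cells, 3 of 15 tested B cell genes were called higher, Ms4a1, Blnk and Cd22, with a list median of 1.23. Their changes were 2.25 ± 0.20, 2.11 ± 0.19 and 1.74 ± 0.23, and all 3 missed the threshold with no filter on dim genes or without the intensity trend, as did Ccl22 and Cybb of the next lists. Cd22 was also not called when its probe sets were averaged (1.03, adjusted p = 0.385), of which the second gave 0.33, with the replicate block (adjusted p = 0.0527) or once deficient replicate 2 was left out (1.47, adjusted p = 0.117). Spib, Ighm and Cd74 followed with 1.46, 1.04 and 1.23 and narrowly missed it, while Pax5 and Fcrla lay below the filter. In the dendritic cell list (median 0.17) Ccl22 was called at 1.89 ± 0.16, and Fscn1, an actin-bundling protein, differed by 1.35 (adjusted p = 0.0720). The value of Fscn1 rests on 1 probe set: another gave -0.04, their mean 0.45, and without deficient replicate 2, where another probe set was brightest, it was 0.17 (adjusted p = 0.992). In the macrophage list (6 tested, median -0.17) Cybb was called at 2.25 ± 0.23. Dimmer Cybb probe sets read 0.83 and 0.75, all of them averaged gave 1.27 and no call (adjusted p = 0.180), and it was not called with no filter (adjusted p = 0.148) or without deficient replicate 2 (2.10, adjusted p = 0.0592). The summed macrophage signal was 623 and 626 against 753 and 887, and Lyz2, the lysozyme gene of myeloid cells, read 78.1 and 84.2 against 77.4 and 33.5. In the CD8 and NK list 8 of 8 tested genes were higher, with a median of 0.50, a summed signal of 3048 and 3347 against 4663 and 3970, and none called. Klrk1, the gene of the activating receptor NKG2D, had its largest change, 1.10 ± 0.23 (adjusted p = 0.237), and passed without wildtype replicate 1 (1.38, adjusted p = 0.00255). Eomes, a factor of memory and NK cells, and Klrd1, the gene of the NK receptor CD94, differed by 0.87 ± 0.27 and 0.68 ± 0.23, and Eomes passed without wildtype replicate 2 (1.18, adjusted p = 0.0316) but was 0.56 without wildtype replicate 1 and 0.51 without deficient replicate 2 (adjusted p = 0.556 and 0.955). Cd8a read 49.6 and 48.1 against 79.4 and 88.9 on its brightest probe set. The others past the filter gave 0.42, -0.08 and -0.71, and the mean of all 0.07. Of the naive and quiescence genes, Klf2, Bach2, Foxo1 and Lef1 are also known in B-lineage cells, and the part of such cells in their values was not tested.

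Promoters of RefSeq (GRCm38.p6), from 250 bases before to 50 after a start site, were listed for 6 of the 8 measured genes, 13 promoters in all; Ccr7 and S1pr1 are not among them. Both strands were searched for short motifs of the factors named here. The FOXO motif GTAAACA was in 0 of the 13, where 3.65% of 32851 promoters hold it, and the short KLF motif CACCC was in 9, where 57.5% do. The TCF/LEF motif CTTTGA was in 2, where 16% do: one at a downstream start of Lef1, with 2 matches, and the one of Bach2. They are shown with 30 bases on the plus strand, because LEF1 is itself one of these factors, and the capitals mark the motif, which is read on the opposite strand.
Lef1, chr3:131156102-131156131: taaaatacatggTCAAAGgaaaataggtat
Lef1, chr3:131156162-131156191: cattgtctgttcTCAAAGtcaggtcttgca
Bach2, chr4:32417330-32417359: actgtgttgttcTCAAAGttgagtagagtt
A match describes the letters and is no evidence of binding. The probe sets of Lef1 and Bach2 gave -0.22 and 0.04.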

How the data were processed

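Expression was measured on Affymetrix Mouse Genome 430 2.0 arrays, 1 for each of 4 samples, from 100 ng of RNA per the labels. The authors deposited MAS5 signals, linear intensity values already scaled per array. MAS5 and Transcriptome Analysis Console are the tools given, without versions, per the submitters' processing notes; scan batches are not given in the sources used here.

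Of 45101 probe sets, 64 controls were left out. A platform annotation named 34945 with 1 symbol; 932 with several and 9160 with none were not named. Signals were transformed as log2(signal + 14.7), the 25th percentile of all values, which understates changes of dim genes. Each gene took its brightest probe set, and genes at or above the 40th percentile (5.48) were tested with limma 3.58.1 in R 4.3.3 (eBayes with an intensity trend, two-sided, 8.60 degrees of freedom), with Benjamini-Hochberg adjustment over 12821 genes. The code was tested on simulated data. Figures used matplotlib 3.10.9.

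The genes and lists were chosen with earlier results of these data known, so no list was tested. From each list, the text names called genes and up to 3 more with the smallest unadjusted p below 0.05, besides fixed markers; Prdm1 was added after its value was seen. Markers without a probe set were left out. Alternatives covered pseudocount, filter, normalization, probe set choice, variance prior, a replicate block and each array left out. Across genes, replicate 2 minus replicate 1 in wildtype arrays correlated with the same difference in deficient arrays at r = 0.050. That low value cannot decide whether the numbers pair samples, since 11 of the 15 lists had a median above 0 in both genotypes. The labels do not say what the numbers pair, so the main fit left them out and the replicate block was an alternative.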

Additional observations from a re-analysis of the deposited data

How the results depend on the processing

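No naive or quiescence gene was called by limma in any of the 13 alternatives, nor was any of their probe sets in the 12 that test probe sets. At an unadjusted p below 0.05 there were 0 to 2 of the 8: Satb1 after quantile normalization, Foxo1 with the mean of probe sets, Ccr7 and Lef1 with the replicate block, and 1 of the latter pair with any 1 array left out. Their median change stayed between -0.12 and 0.11 when 1 array was left out and between 0.00 and 0.09 otherwise. Ccr7, Klf2, Lef1 and Satb1 kept their signs throughout. Il7r and Foxo1 turned to 0.065 and 0.0063 with median centring, which moved the median of all genes from -0.01 to 0.07. Leaving out 1 array, Il7r ran from -0.22 to 0.18, S1pr1 from -0.015 to 0.15, Foxo1 from -0.17 to 0.017 and Bach2 from -0.091 to 0.17. Foxo1 was -0.30 with the mean of probe sets, which takes in those below the filter such as 1456529_at (56.4 and 19.5 against 10.3 and 7.71). With the same mean Pik3cd, Jund and Id2 turned to 0.016, 0.28 and 0.029. Leaving out 1 array also turned Cd3e, Cd4, Cd8a and Cd69, which ran from -0.076 to 0.16, from -0.43 to 0.20, from -0.12 to 0.65 and from -0.18 to 0.21. The cause of these turns was not tested.

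Over all genes 23 were called, with 2 when no filter was used, 51 with median centring, 14 with the mean of probe sets, 0 without the intensity trend (769 at an unadjusted p below 0.05), 14 with the replicate block, and 16 to 100 with 1 array left out. For the 38 tested list genes that were followed, leaving out 1 array could change the brightest probe set, as for Fscn1, S1pr2 and Cd8a. It moved 17 of the 38 by over 1.5 times or turned them, and the mean of probe sets moved 13. Pik3cd and Gzmb, for example, were -0.55 and 0.51 without wildtype replicate 2 and -0.16 and 0.20 without wildtype replicate 1 (adjusted p = 0.0194, 0.00846, 0.917 and 0.672). The arrays' number, 2 a genotype, limits every value. The widest intervals of the naive and quiescence genes came from dim probe sets, such as 1439315_at of Satb1 and that of Klf2.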
